A study of Mus musculus with 2 samples.

Results

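The genes of extracellular adenosine production, sensing and clearance, 10 in all, were compared between regulatory T (Treg) cells of Nr4a-TKO and wild-type mice. They are the ectonucleotidases that make adenosine (Entpd1, Nt5e), its receptors (Adora1, Adora2a, Adora2b, Adora3) and the genes that clear it (Ada, Adk, Slc29a1), with Dpp4 listed beside them. Members were chosen by name, as the non-control probes that carry one of these gene names. All 10 genes were on the array, with 13 of its 55676 probes, and 8 of the 10 were measured well above background on both arrays. Over the whole array, 23415 of 34817 gene names were so measured.

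Treg cells restrain other immune cells, and adenosine is a route by which they do so. Entpd1 encodes CD39, which strips phosphates from extracellular ATP and ADP to give AMP, and Nt5e encodes CD73, which turns AMP into adenosine. On T cells the receptors encoded by Adora2a and Adora2b raise cyclic AMP, a signal that dampens activation, whereas those encoded by Adora1 and Adora3 couple to inhibitory G proteins. Adenosine is taken up by the equilibrative transporter encoded by Slc29a1, phosphorylated by adenosine kinase (Adk) or deaminated to inosine by adenosine deaminase (Ada). Dpp4 encodes CD26, a surface peptidase that binds adenosine deaminase in human cells, a role not assumed here for mouse cells.

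The samples were sorted Treg cells from Nr4a-TKO mice and from wild-type mice, all 5 weeks old, with 1 sample and 1 single-colour Agilent array per genotype. The Nr4a genes (Nr4a1 to Nr4a3) encode nuclear receptors, which the series title ties to a Treg-specific transcriptional program. The labels do not state which alleles make up Nr4a-TKO, whether a Cre line was used, the sex or number of the mice, or the sorting markers. There are no replicates, so each difference lies between 2 arrays, with no p-value and no spread between animals.

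Well above background by the scanner's own call were 63.9% of probes on the Nr4a-TKO array and 66.0% on the wild-type array, and 0 spots were saturated. Of the Nr4a genes only Nr4a3 was at least 2-fold lower on the array labelled Nr4a-TKO, by 7.04-fold, or 3.26-fold with normexp background correction. Nr4a1 differed by 0.06 on the log2 scale, a sign that turned under some scalings, and Nr4a2 was 2.54-fold higher. The genotype therefore stands as a label in every direction given here. All 7 T and Treg defining markers examined were measured on both arrays and all had lower values on the Nr4a-TKO array, from 17.2-fold for Foxp3 (10.3-fold with normexp) to a log2 difference of -0.36 for Cd3e. Well above background were 7 of 7 probes of Xist, the transcript of the inactive X chromosome, on the Nr4a-TKO array and 2 of 7 on the wild-type array. All 7 were brighter on the Nr4a-TKO array, by 7.83 to 11.17 on the log2 scale, though dim wild-type values make these sizes inexact. Of 4 Y-linked genes, 3 were well above background on both arrays and lower on Nr4a-TKO, Ddx3y by 3.63-fold (signals of 978 on Nr4a-TKO and 3921 on wild-type), Eif2s3y by 1.97-fold (4559 and 9938) and Uty by 1.52-fold. Kdm5d was so on wild-type alone. Y-linked transcripts were thus present on both arrays, in unequal amounts, and genotype and the sexes of the mice in each sample cannot be told apart.

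Each probe is a 60-base oligo on a single spot. The ends of 6 receptor and ectonucleotidase probes are shown because the results turn on what these oligos detect. They are the last 30 bases, 5′ to 3′, in lower case, with the polyadenylation hexamer AATAAA in capitals where it occurs.
Adora2b, first probe: ttattgggacctaaagtgtgaaaattttac
Adora2b, second probe: aacttctttgggtgtgtccttcctccactg
Adora3, first probe: gtgcatttgagcaAATAAAagatgatgccc
Adora3, second probe: tttgtatactgattaccagtttggggatca
Adora2a: ccctgagataaAATAAAatgagccacactg
Entpd1: tgagagagaaaagtttcaattcatctaaat

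On the files' build, mm9, the Adora2b probes lie on the plus strand at chr11:62079834-62079893 and chr11:62078754-62078813. The Adora2a probe lies at chr10:74797461-74797520 and the Entpd1 probe at chr19:40816008-40816067, both on the plus strand. The first Adora3 probe lies at chr3:105711212-105711271, plus strand. The second spans chr3:105721698-105722939, which is 1242 bases of genome for a 60-base oligo. Its transcript accession belongs to Tmigd3 in RefSeq (assembly GRCm38.p6), a gene separate from Adora3 in that table. No mm9 annotation was used here, so exon or untranslated positions are not stated. The hexamer, searched on the probe strand, occurs in 2 of the 13 probes and in 10.06% of all probes on the array.

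**Figure D1:**
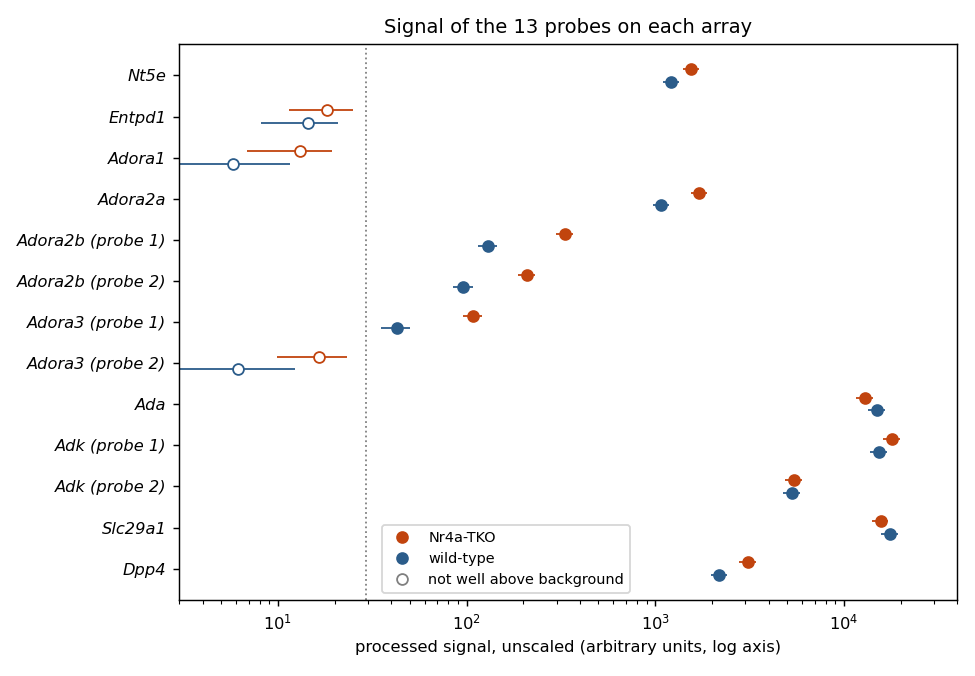
Processed signal of each of the 13 probes (horizontal log axis, arbitrary units, before scaling) on the Nr4a-TKO array and the wild-type array, with the scanner's error for the spot as bars, cut at the left edge. Open symbols mark spots not well above background, and the dotted line is the lowest signal so called on the Nr4a-TKO array (29.3). Signals may be compared within a row, not between rows. Both Adora2b probes and the first Adora3 probe show the widest separation among the filled pairs.

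Among the receptors, 2 genes set the arrays apart. Adora2b and Adora3 stood at least 2-fold higher on the Nr4a-TKO array, and 0 of the 8 measured genes lay at least 2-fold lower. The same sizes were reached by 3.15% of all 23415 measured gene names in the higher direction and by 3.06% in the lower. The median log2 difference (Nr4a-TKO minus wild-type, each array scaled on its 75th percentile) was 0.57 over the 8 genes and 0.08 over all measured names. The 2 genes below 0, Ada and Slc29a1, were within 0.07 of it. Adora2a, Dpp4, Nt5e and Adk lay between 0.37 and 0.81. The 8 genes are those that passed the filter on dim probes, so these counts do not speak for Entpd1 and Adora1.

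Among the enzymes that make adenosine, Nt5e had a signal of 1552 on the Nr4a-TKO array and 1219 on the wild-type array. The scaling raises the Nr4a-TKO side of every gene, because the 75th percentile of signal was 752 there and 831 on the wild-type array. After scaling, Nt5e was 1.41-fold higher, a log2 difference of 0.49 ± 0.20. The error is the scanner's own estimate for the 2 spots and holds no variation between mice. For bright spots it was close to a fixed share of the signal (155 of 1552 for Nt5e on Nr4a-TKO). Bright genes therefore share an error of about 0.20, which is not a spread measured between spots. Of all measured names 11.5% were at least as much higher. Its probe lies at chr9:88266616-88266675, plus strand.

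Entpd1, the enzyme one step upstream, had a signal of 18.3 ± 6.80 on the Nr4a-TKO array and 14.5 ± 6.33 on the wild-type array. Both lie below the lowest signals called well above background, 29.3 on the Nr4a-TKO array and 28.1 on the wild-type array. Its single probe was not well above background on either array, so no fold is given. A low signal of 1 probe does not show that the transcript was lacking.

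Among the receptors that raise cyclic AMP, Adora2b had signals of 333 and 210 at its first and second probe on the Nr4a-TKO array, against 130 and 96.0 on the wild-type array. Both oligos were brighter on the Nr4a-TKO array, by 2.83-fold and 2.41-fold after scaling. The log2 difference of the first probe, which represents the gene, was 1.501 ± 0.22 and that of the second 1.27 ± 0.23 (scanner error). Their gap is close to the median gap of 0.25 between probes of a gene, taken over 6790 names with several measured probes. A difference at least as high as that of the first probe was shown by 1.38% of all measured names, and by 2.95% of the 2171 names whose mean signal lay within 0.5 log2 units of it. With normexp background correction, which adds an offset to every signal, the first probe stayed above 2-fold at 2.21-fold and the second came to 1.79-fold.

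Adora2a, which encodes the receptor best known for adenosine sensing on T cells, had a signal of 1714 on the Nr4a-TKO array and 1078 on the wild-type array. The scaled difference was 0.81 ± 0.20, or 1.76-fold, which is under the 2-fold size used for counting. It was at least as high for 4.67% of all measured names. In the alternatives, which reuse the same spots, it lay between 0.54 and 0.81, on the same side of 0 in all 11.

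Of the receptors that couple to inhibitory G proteins, Adora3 had a signal of 108 ± 12.5 at its first probe on the Nr4a-TKO array and 42.6 ± 7.28 on the wild-type array. The wild-type value is not far above the lowest signal called well above background. The scaled difference was 1.48 ± 0.30, or 2.80-fold, and 1.43% of all measured names were at least as much higher. With normexp it was 0.77, or 1.71-fold, and no longer passed 2-fold, a size that 2.04% of all measured names reached in the higher direction and 1.94% in the lower under that correction. The second probe under this name, the one whose accession is Tmigd3, was not well above background on either array, with signals of 16.5 on Nr4a-TKO and 6.14 on wild-type, so its difference does not bear on Adora3. Adora1 was dim on both arrays too, with a signal of 13.1 ± 6.26 on the Nr4a-TKO array and a surrogate value of 5.77 on the wild-type array, and no fold is given. Its probe lies at chr1:136095833-136095892, minus strand.

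Of the genes that clear adenosine, Ada and Slc29a1 lay closest to 0 with the 75th-percentile scaling. Ada had a signal of 12916 on the Nr4a-TKO array and 14935 on the wild-type array, a scaled difference of -0.07 ± 0.20. Slc29a1 had a signal of 15675 on the Nr4a-TKO array and 17577 on the wild-type array, a scaled difference of -0.02 ± 0.20. Both differences are smaller than the scanner error of the spots, and with spike-in controls as the centre they were -0.34 and -0.30, farther from 0 than Nt5e (0.22) and Adk (0.09) under that centre. The Ada probe lies at chr2:163552581-163552640 and the Slc29a1 probe at chr17:45722171-45722230, both on the minus strand.

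Adk, the kinase that returns adenosine to AMP inside the cell, had signals of 17969 and 5438 at its first and second probe on the Nr4a-TKO array, against 15367 and 5299 on the wild-type array. The scaled differences were 0.37 ± 0.20 and 0.18 ± 0.20. The probes, at chr14:22267635-22267694 and chr14:22059713-22059772 on the plus strand, therefore differed from each other by less than the scanner error of either difference. Dpp4 had a signal of 3102 on the Nr4a-TKO array and 2184 on the wild-type array. Its scaled difference was 0.65 ± 0.20, or 1.57-fold, at chr2:62170062-62170121 on the minus strand, and 7.004% of measured names were at least as much higher.

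**Figure D2:**
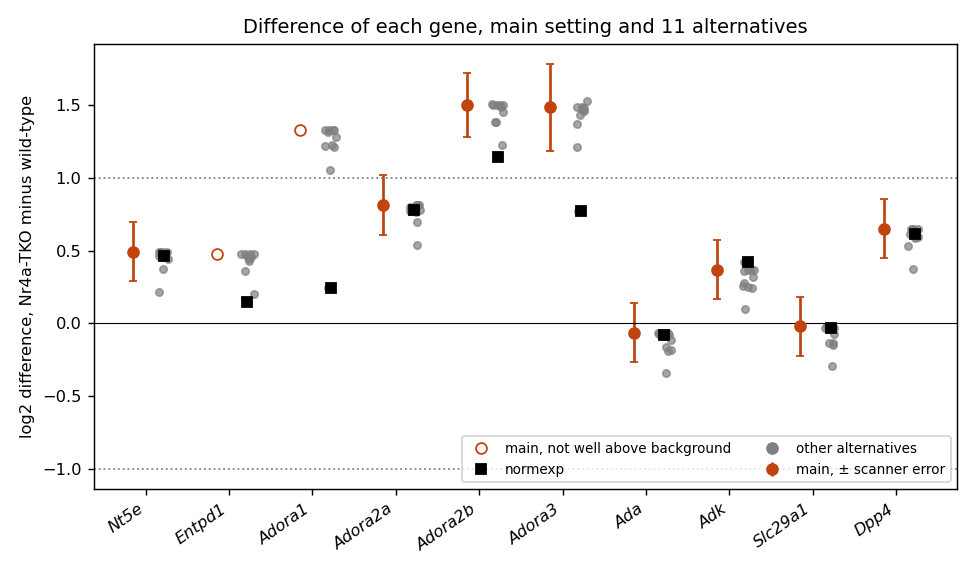
Log2 difference (Nr4a-TKO minus wild-type) of each gene in the main setting, with the scanner error as bars, and beside it in 11 alternative settings, of which normexp is the black square. Open symbols are genes not well above background on either array, drawn without bars, and dotted lines mark 2-fold. Adora2b is the gene above the upper line in every setting drawn among the 8 measured, and Adora3 drops to 0.77 with normexp.

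**Figure D3:**
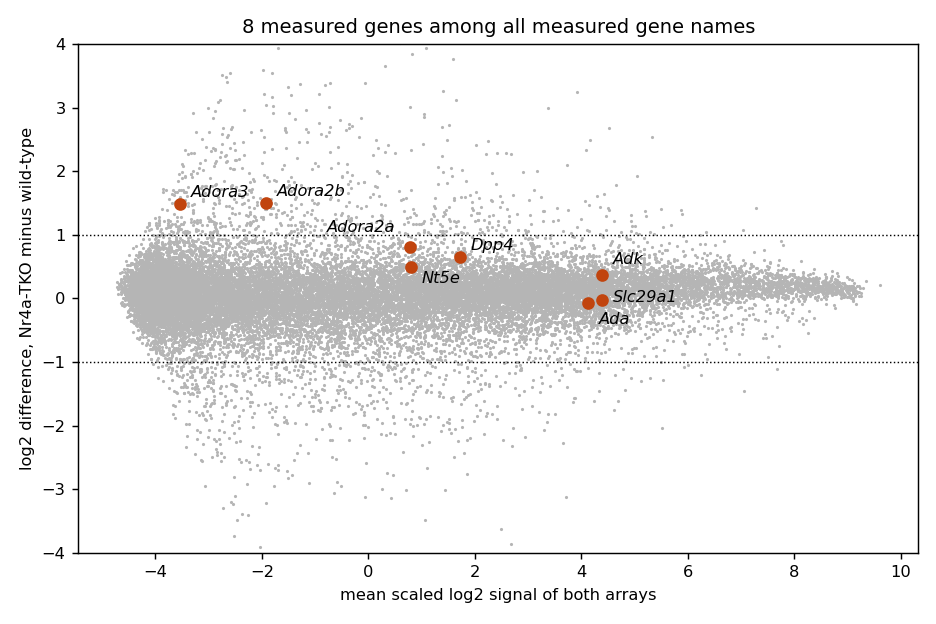
Log2 difference (Nr4a-TKO minus wild-type) against mean scaled log2 signal for the measured gene names in grey, of which 22 lie beyond the vertical axis, with the 8 measured adenosine genes labelled. Dotted lines mark 2-fold. For Adora3, 1.39% of the 4232 names within 0.5 log2 units of its mean signal were at least as much higher.

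Around these members, 6 further lists held 99 genes on the array, 84 of them measured on both arrays. They cover purine handling, the G protein and cyclic AMP steps below the receptors, and the peptidase family of Dpp4. That family is not part of the purine pathway. Past 2-fold were 6 in the higher direction (7.14%) and 2 in the lower (2.38%), beside 3.15% and 3.06% of all measured names. Of the 6 higher genes, 2 (Dpp6 and Fap) belong to the peptidase family. With spike-in controls as the centre the counts were 5 and 3. The median over the 84 was 0.14, against 0.08 over all measured names, and its sign depends on the scaling, at 0.02 with housekeeping genes as the centre and -0.14 with spike-ins, where all measured names had -0.04 and -0.20. Positive differences were shown by 54 of the 84 and by 59.6% of all measured names, or by 29 of the 84 and 26.7% of all names with spike-ins as the centre, so counts of signs are given under both scalings.

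Of the 12 measured genes for ATP release and P2 receptors, 3 were past 2-fold, all of them higher. They encode receptors for extracellular nucleotides, the substrates of Entpd1. P2ry2 was higher by 4.085-fold, with signals of 262 on Nr4a-TKO and 70.9 on wild-type, or 2.49-fold with normexp. P2ry1 was higher by 3.03-fold, with signals of 804 on Nr4a-TKO and 293 on wild-type. P2rx7, the ATP-gated channel whose opening can kill T cells, was higher by 2.32-fold, with 3 probes between 0.99 and 1.22 on the log2 scale. It came under 2-fold with spike-ins as the centre (0.94).

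A list of other ectonucleotidases and related enzymes held further Entpd and Enpp genes, Alpl, Art2b, Cd38, Bst1 and Acpp, not all of them ectonucleotidases. Of its 12 members measured on both arrays, 6 had positive and 6 negative differences, also with spike-ins as the centre. Entpd2, a relative of Entpd1 that acts mainly on ATP, was the 1 past 2-fold, at 3.34-fold higher, with signals of 230 on Nr4a-TKO and 76.1 on wild-type, or 2.13-fold with normexp. Entpd3 was well above background on the Nr4a-TKO array alone and at least 3.01-fold higher there, though 1.73-fold with normexp. In the dipeptidyl peptidase family of Dpp4, all 8 measured genes had positive differences, or 4 of the 8 with spike-ins as the centre, and 2 passed 2-fold. Fap, the closest relative of Dpp4 in that family, was higher by 4.39-fold, with signals of 1059 on Nr4a-TKO and 267 on wild-type. Dpp6, which lacks peptidase activity, was higher by 2.43-fold, or 1.97-fold with normexp and 0.87 on the log2 scale as the mean of its probes.

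The remaining lists held the lower genes. Among 5 measured nucleoside transporters other than Slc29a1, 4 had negative differences, or all 5 with spike-ins as the centre. Slc28a2, a sodium-driven purine nucleoside carrier, was lower by 2.01-fold, with signals of 3644 on Nr4a-TKO and 8079 on wild-type, and by 1.94-fold with normexp. Of 23 measured intracellular purine enzymes, 17 had positive differences (10 with spike-ins as the centre) and only Ahcyl2, a relative of the enzyme that splits S-adenosylhomocysteine into adenosine and homocysteine, passed 2-fold. It was lower by 2.73-fold at its brightest probe, yet its 3 measured probes disagreed, with log2 differences between -1.45 and 0.12 and -0.87 for the probe mean. The AMP deaminase gene Ampd3 was well above background at its brightest probe on the wild-type array alone and at least 2.31-fold lower on Nr4a-TKO, but 1.39-fold with normexp and at -0.26 as the mean of its probes. Of the G protein and cyclic AMP genes that act below the receptors, 24 were measured and 0 passed 2-fold, with a median of 0.03 (-0.24 with spike-ins as the centre) and a range from -0.98 for Prkar1b to 0.69. Prkar1b, a regulatory subunit of the cyclic AMP-dependent kinase, passed 2-fold lower under other centres, at -1.26 with spike-ins, -1.10 with housekeeping genes and -1.03 with scaling on probes well above background.

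**Figure D4:**
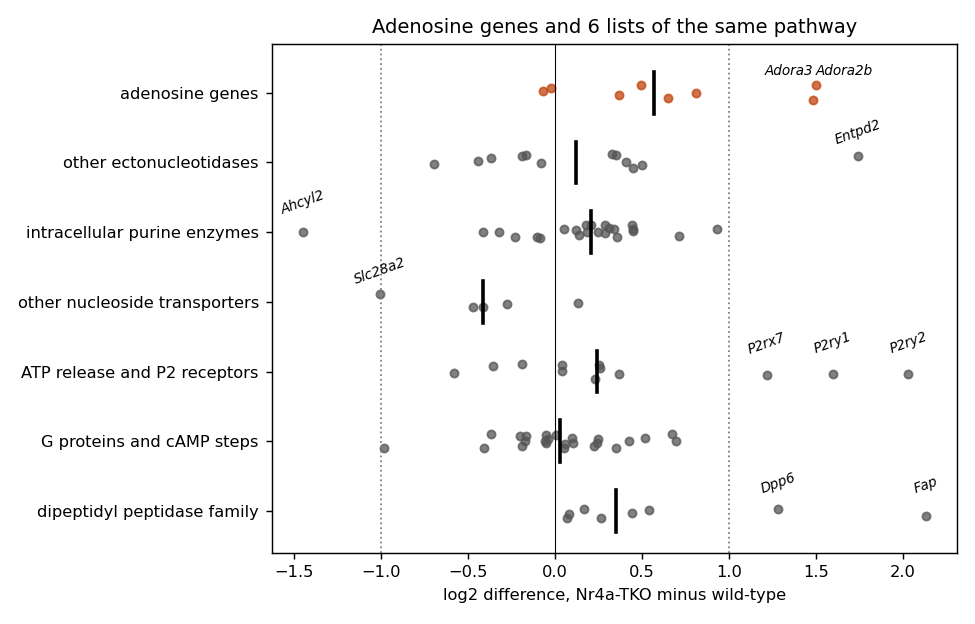
Log2 difference (Nr4a-TKO minus wild-type, horizontal axis) of the 8 measured adenosine genes and of the measured genes of the 6 other lists, 1 point per gene, with each list's median as a black bar and dotted lines at 2-fold. Genes past 2-fold are named. The adenosine genes have a median of 0.57 and the nucleoside transporters a median of -0.41.

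Cells other than Treg cells also carry these transcripts, and a change in the share of a cell type cannot be told apart from a change in RNA per cell. Summed signals below are before scaling, and the 75th percentile of signal was 752 on Nr4a-TKO and 831 on wild-type. A small gap between sums with wild-type higher is thus not read as a difference. Of 12 granulocyte and mast cell markers on the array, 4 were measured on both arrays, 3 on wild-type alone and 5 on neither. The mast cell markers Fcer1a, Cpa3 and Mcpt4 and the eosinophil marker Epx were among those measured on neither. The 3 measured on wild-type alone were S100a8, S100a9 and Prg2, which like Epx is an eosinophil marker. They were at least 2.50-fold, 2.89-fold and 2.38-fold lower on Nr4a-TKO, or 1.80-fold, 1.89-fold and 1.35-fold with normexp. The summed signal of that list was 2415 on Nr4a-TKO and 1709 on wild-type. Among the 4 measured on both arrays, Ly6g, at 2.75 on the log2 scale, was the higher member past 2-fold. Mpo, at -2.96 (-1.61 with normexp), was the lower one. Without those members the sums were 857 on Nr4a-TKO and 1182 on wild-type, the opposite order. For 7 B cell markers the summed signal was 1375 on Nr4a-TKO and 998 on wild-type, with 4 measured on both arrays, 1 on wild-type alone and Ms4a1 and Ebf1 on neither. The 1 member past 2-fold, Cd79b, was 2.51-fold higher (signals of 773 on Nr4a-TKO and 340 on wild-type), and without it the sums were 602 on Nr4a-TKO and 658 on wild-type. That gap is small for unscaled sums. All 4 B cell markers measured on both arrays had positive scaled differences, or 2 of the 4 with spike-ins as the centre. For 8 CD8 T and NK cell markers the summed signal was 3348 on Nr4a-TKO and 5303 on wild-type, with 6 measured on both arrays and Klrb1c on neither. Among them Eomes was 2.47-fold higher (1.99-fold with normexp). Nkg7 differed by -0.78 at its brightest probe, by -2.62 at its other probe and by -1.70 as the mean of its probes. Klrd1, measured on wild-type alone, was at least 5.97-fold lower (3.33-fold with normexp). For 8 erythroid and platelet markers it was 166 on Nr4a-TKO and 267 on wild-type, with Itga2b measured on both arrays, 2 on wild-type alone and 5 on neither, and Hbb-b1 was at least 2.88-fold lower (1.82-fold with normexp). For 9 myeloid and dendritic cell markers it was 10220 on Nr4a-TKO and 11613 on wild-type, with 6 measured on both arrays, 1 on wild-type alone and Cd14 and Itgax on neither. Itgam made up most of that sum, at 8209 on Nr4a-TKO and 9708 on wild-type. Of the 6, 2 had positive differences, Cd68 (0.56) and Csf1r (0.22), and 4 negative ones. With normexp 4 were positive and 2 negative, and with spike-ins as the centre 1 was positive and 5 negative. The 1 past 2-fold, Lyz1, was 4.20-fold lower (1.89-fold with normexp). Its Nr4a-TKO signal of 39.5 was not far above the lowest called well above background. Lyz2, measured on wild-type alone, was at least 1.56-fold lower (1.32-fold with normexp). For 8 naive and resting T cell markers, all measured on both arrays, the summed signal was 306255 on Nr4a-TKO and 536630 on wild-type. At least 2-fold lower were 4 and higher 0, beside 3.06% and 3.15% of all measured names. Il7r (0.73) and Satb1 (0.22) had positive differences, and the other 6 negative ones. The part of these cell types, and of the lower Foxp3, in the Adora2b and Adora3 differences was not tested.

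Because the array compares cells labelled Nr4a-TKO with wild-type cells, the 250 bases before each start site were searched for the Nr4a monomer element (NBRE, AAAGGTCA) and for the cyclic AMP response element (CRE, TGACGTCA), on both strands, in RefSeq promoters of GRCm38.p6. Sequences were at hand for 9 of the 10 genes, Adora2a being the exception, as 19 promoters. Slc29a1 had the most of these, so they are not spread evenly over the genes. Neither motif occurred in any of the 19. Among all 32851 promoters of that length, the share with a match was 1.34% for NBRE and 1.55% for CRE. With shares this low, finding none in 19 is not a result about the members. These letters are not in these windows, which says nothing of other sites or of binding.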

How the data were processed

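Total RNA was labelled with Cy3 and hybridised to 1 array per genotype, per the labels' protocols. The deposited intensity of each spot came from Agilent's Feature Extraction, version 10.10.1.1, and was background-subtracted and detrended, with surrogate values for dim spots and no scaling between arrays, per the file headers. The authors also deposited log2 values, each equal to the log2 of the scanner signal minus a constant of its array (SD of the rest 0.00029), with column medians of -3.53 for Nr4a-TKO and -3.54 for wild-type. The deposited values lay -9.546 (Nr4a-TKO) and -9.688 (wild-type) from the log2 signal. In size these are close to each array's log2 75th percentile, 9.555 and 9.699. The deposited table therefore nearly repeats the main scaling used here. How its constant was set is not known.

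Control spots and spots flagged as outliers (117 on Nr4a-TKO, 156 on wild-type) were dropped. The log2 signals were averaged per probe and reduced by each array's 75th percentile. A gene was its brightest probe under the file's gene name, counted where well above background on both arrays. A gene dim at all its probes on a single array got a lower bound, its bright value against the higher of the lowest well-above-background signal and its own signal on the dim array. With 1 array per genotype no test was run, and the number of arrays limits the precision. The 2-fold counting was tested on simulated data with planted changes past 2-fold and every probe well above background. That checks the counting step only, not dim probes, probes that disagree or the scaling.

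The members, lists and the rule for named genes (all members, up to 4 genes past 2-fold per list, the Nr4a and Treg markers) were chosen with earlier results of these data known. Prkar1b, the single markers of other cell types and Y-linked genes, and the sums without members past 2-fold were chosen after their values were seen. A B cell marker is not reported here and was left out of that list's counts and sum. Alternatives were normexp (offset 50), 6 other scalings, the deposited log2 table, outlier spots kept, the mean of probes, names through accessions, and other filters and thresholds. Python 3.11.15, numpy 2.4.6, pandas 2.3.3, matplotlib 3.10.9, R 4.3.3 and limma 3.58.1 were used.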

Additional observations from a re-analysis of the deposited data

How the results depend on the processing

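The 2 higher members became 1 with normexp (Adora2b alone), 0 with the stricter filter on dim probes, which removes both genes, 4 at 1.5-fold and 0 at 3-fold. No member was at least 2-fold lower in any setting run. None of the 10 changed the sign of its difference in the 11 settings that gave each a value. These settings reuse the same spots, so they are not repeats of the comparison. Outlier spots kept, the deposited log2 table and names through accessions hardly moved any value. Other centres lowered every difference, so they could not turn Ada or Slc29a1 positive. Entpd1 and Adora1 were dim on both arrays, so their signs carry no weight. The 6 higher genes of the 6 further lists became 1 with the stricter filter and 10 at 1.5-fold. The 2 lower became 1 with normexp, 1 with the mean of probes, 4 without the filter, 4 at 1.5-fold and 0 at 3-fold. Filters and thresholds move counts by construction, and normexp adds an offset that shrinks differences of dim genes.

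The array-wide counts past 2-fold, 738 up and 717 down, moved to 477 and 455 under normexp. With the spike-in centre they were 449 and 1248, and with the housekeeping centre 598 and 885. They were 1980 and 1828 without the filter, 257 and 279 with the stricter one, 1959 and 1725 at 1.5-fold and 288 and 282 at 3-fold. Spike-ins as the centre shifted every difference by -0.27 and housekeeping genes by -0.12. Relative to the spike-in shift, the median of all measured names was -0.20 and that of the members 0.30.

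Spots of 1 probe had a median SD of 0.08 for a difference over 262 replicated probes, and the 95th percentile of the gap between probes of a gene was 1.16. Low signal over background limits Entpd1, Adora1 and the wild-type value of Adora3. No paired analysis was possible because each genotype had 1 sample.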
